A study of Avicennia schaueriana with 18 samples.

Results

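Of the 49490 transcripts counted in the mangrove tree *Avicennia schaueriana*, 4 were followed here through leaves, stems and flowers. They are As_16912, As_25244, As_26169 and As_10296, which the study listed under the response to cold and paired with proteins of *Arabidopsis thaliana*. As_16912 is similar to the glycine-rich RNA-binding protein RZ-1A (AT3G26420), As_25244 to the DNA helicase ATSGS1 (AT1G10930), As_26169 to a malate dehydrogenase (AT3G47520) and As_10296 to AGAMOUS-LIKE 24, AGL24 (AT4G24540). They were chosen by the measured difference between the sites, being higher at the subtropical than at the equatorial site in 1 tissue, which was the leaf for As_16912 and As_26169 and the stem for As_25244 and As_10296. Site differences in those tissues are therefore a description, without a test. Flowers and the other vegetative tissue did not enter the listing and were tested. Differences between tissues were also tested, but they take in the groups that entered the listing.

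Adult flowering trees were sampled in the field, 3 at a subtropical forest (St1, St2 and St4, between 28.36 and 28.48 degrees south) and 3 at an equatorial forest (Eq4, Eq5 and Eq6, between 0.64 and 0.65 degrees south), with a library from each tissue of each tree (18 libraries). At collection the air was at 18.3 to 20.9 °C with a relative humidity of 82 to 86% at the subtropical site, and at 28.3 to 30.1 °C with 47 to 51% at the equatorial site. Temperature, humidity, season and origin of the trees change together between the sites and cannot be told apart in these samples. The deposited values are counts of reads that mapped to a single transcript of the study's own assembly, so that reads shared with a near-identical copy are not in them. Abundances are given as counts per 1000000 counts (CPM) on library sizes scaled by edgeR's TMM method over the 18 libraries. They are not divided by transcript length, and levels are compared only within a transcript.

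RZ-1A of *Arabidopsis* is a nuclear RNA-binding protein with a glycine-rich stretch and a zinc finger, whose transcript accumulates in the cold and which acts as an RNA chaperone during seed germination and seedling growth at low temperature. ATSGS1, also called RECQ4A, is a RecQ helicase that resolves DNA structures arising in replication and repair and limits crossovers. AT3G47520 encodes the plastid NAD-dependent malate dehydrogenase, which interconverts malate and oxaloacetate in chloroplasts and non-green plastids. AGL24 is a MADS-box transcription factor that promotes flowering together with SOC1 and whose transcript rises during vernalization, the acceleration of flowering by prolonged cold. These roles are known from *Arabidopsis* and were not measured in the mangrove.

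Library totals were 5055480 to 11172632 counts in flowers, 9894226 to 15802680 in stems and 8749713 to 14313994 in leaves. The flower library labelled Eq6 stood apart from its site. Of 65 transcripts counted in every subtropical and in no equatorial leaf and stem library, it counted 53 and the flower libraries of subtropical trees 48 to 59, against 3 each in those labelled Eq4 and Eq5. Of 36 transcripts counted the other way round, it counted 6 and the subtropical flowers 1 to 2, against 31 each in those labelled Eq4 and Eq5. Flower results are therefore given with and without it. The 5 transcripts taken as markers of green tissue, among them those similar to PSBO1 and PSB27 of photosystem II, were counted in every library and summed to 611 to 862 CPM in subtropical leaves, against 195 to 310 CPM in equatorial leaves. In stems the sums were 162 to 269 CPM and 85.9 to 200 CPM, and in flowers 63.7 to 102 CPM and 18.8 to 88.7 CPM, for subtropical and equatorial trees in that order. The 8 markers of secondary walls summed to 7.76 to 10.6 CPM in subtropical leaves and to 17.6 to 116 CPM in equatorial leaves, and those similar to GAUT12 and NST1 were at 0 in the subtropical leaves. In stems the 8 markers summed to 243 to 667 CPM at the subtropical site and to 171, 361 and 3152 CPM in Eq4, Eq5 and Eq6. In flowers the sums were 69.3 to 179 CPM in subtropical and 73.2 to 255 CPM in equatorial trees. The study chose both lists for a site difference in leaves. The part of green or woody tissue in the values below was not tested, and in such bulk samples fewer cells of a type and less RNA per cell cannot be told apart.

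The transcript similar to RZ-1A (As_16912) was counted at least 98 times in every library. Flowers of St1, St2 and St4 had 44.4, 38.5 and 28.7 CPM, against 23.1, 17.96 and 23.6 CPM in flowers labelled Eq4, Eq5 and Eq6. Stems had 62.3, 49.8 and 45.4 CPM at the subtropical site, against 37.5, 20.004 and 23.3 CPM at the equatorial site. Leaves had 94.8, 73.2 and 56.4 CPM in the subtropical trees, against 42.4, 33.5 and 33.7 CPM in the equatorial trees. In each tissue the lowest subtropical tree lay above the highest equatorial tree, and the subtropical trees kept the order St1, St2, St4. The means were 37.2 ± 7.92 and 21.6 ± 3.12 CPM for flowers, 52.5 ± 8.74 and 26.9 ± 9.29 CPM for stems and 74.8 ± 19.2 and 36.5 ± 5.09 CPM for leaves (SD, n = 3 trees each, subtropical before equatorial). In order of the group means, subtropical leaves were followed by subtropical stems, subtropical flowers, equatorial leaves, equatorial stems and equatorial flowers. Of these neighbours, only subtropical stems and subtropical flowers did not overlap, with 45.4 CPM as the lowest stem and 44.4 CPM as the highest flower.

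The transcript similar to the helicase ATSGS1 (As_25244) was most abundant in stems. Its stem values were 16.9, 10.9 and 11.2 CPM in St1, St2 and St4, against 5.61, 4.82 and 5.51 CPM in Eq4, Eq5 and Eq6. Leaves had 6.40, 4.84 and 2.23 CPM at the subtropical site, against 1.28, 0.964 and 2.04 CPM at the equatorial site. Flowers had 5.08, 2.65 and 2.80 CPM in the subtropical trees, against 0.945, 2.60 and 2.83 CPM in the libraries labelled Eq4, Eq5 and Eq6. The sites did not overlap in stems, were nearly in contact in leaves and overlapped in flowers, where the library labelled Eq6 exceeded St2 and St4. Mean values were 13.0 ± 3.38 and 5.31 ± 0.427 CPM for stems, 4.49 ± 2.11 and 1.43 ± 0.553 CPM for leaves and 3.51 ± 1.36 and 2.12 ± 1.03 CPM for flowers (SD, n = 3 trees each, subtropical before equatorial). Subtropical stems stood above all other groups without overlap, and each of the lower neighbours in the order of means overlapped with the next.

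The transcript similar to plastid malate dehydrogenase (As_26169) was counted almost only in subtropical trees. Leaves of St1, St2 and St4 had 30, 137 and 8 counts (3.43, 13.3 and 0.941 CPM), and the 3 equatorial leaf libraries had 0. The subtropical stems had 3, 1 and 4 counts, and the equatorial stems had 0. Flowers of St1, St2 and St4 had 4, 4 and 0 counts, against 0, 0 and 4 counts in the libraries labelled Eq4, Eq5 and Eq6. It was thus counted in 8 of 9 subtropical libraries and in 1 of 9 labelled equatorial, the flower library that stood apart. Subtropical leaves held 175 of the 191 subtropical counts (91.6%), and among them St2 exceeded St4 by 14.1-fold in CPM. The floor of 3 counts in a single equatorial library was 0.241 to 0.413 CPM in leaves. Against the highest of these floors, the pooled level of 6.34 CPM in subtropical leaves was at least 15.4-fold higher. St2 held 137 of these 175 counts, and without it the bound was 5.33-fold. Both bounds are for the pooled level and not for single trees, and they describe the tissue that chose this transcript. In stems the pooled subtropical level of 0.182 CPM lay within the range of the equatorial floors (0.170 to 0.268 CPM), and no fold is given.

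The transcript similar to the flowering regulator AGL24 (As_10296) was most abundant in leaves at both sites. Leaves of St1, St2 and St4 had 16.8, 23.9 and 15.2 CPM, against 7.62, 1.10 and 11.9 CPM in Eq4, Eq5 and Eq6. Stems had 1.03, 2.45 and 0.543 CPM (15, 31 and 9 counts) at the subtropical site, against 0, 0.179 and 0.114 CPM (0, 2 and 2 counts) at the equatorial site. Flowers had 3.89, 1.12 and 0.263 CPM (36, 8 and 3 counts) in the subtropical trees, against 1.42, 0 and 2.12 CPM (6, 0 and 18 counts) in the libraries labelled Eq4, Eq5 and Eq6. The sites did not overlap in leaves and stems and overlapped in flowers, where single trees spanned the range from 0 to 3.89 CPM. In leaves the equatorial tree Eq5 stood far below Eq4 and Eq6, with 8 counts against 95 and 117. The leaf means were 18.6 ± 4.65 CPM in subtropical and 6.89 ± 5.45 CPM in equatorial trees, and the stem means 1.34 ± 0.991 and 0.0974 ± 0.0904 CPM (SD, n = 3 trees each).

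**Figure D1:**
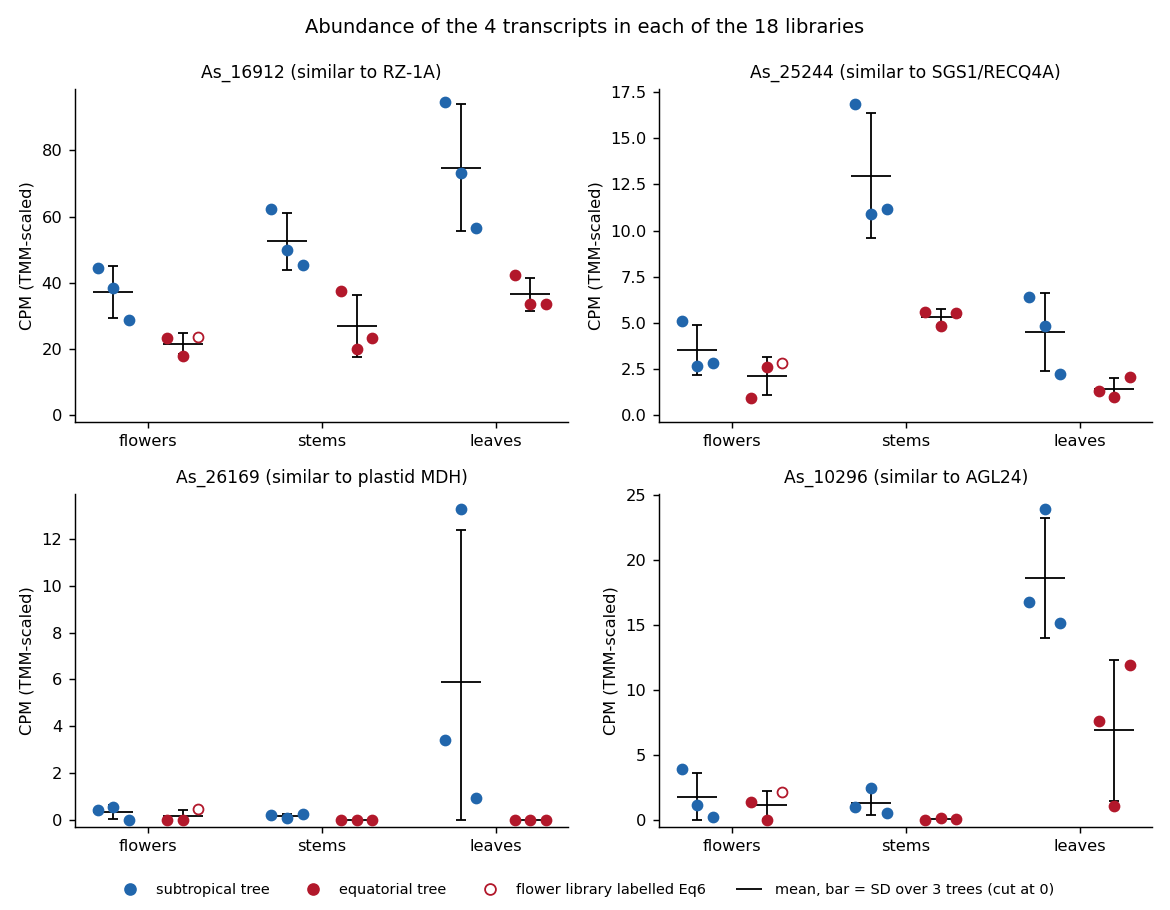
Abundance of the 4 transcripts in each library, in CPM on a linear axis, with flowers, stems and leaves from left to right and subtropical trees (blue) left of equatorial trees (red) in each tissue. Points are single trees, the open point is the flower library labelled Eq6, and bars are the mean and SD over 3 trees. As_16912 and As_10296 are highest in subtropical leaves (means 74.8 and 18.6 CPM), As_25244 in subtropical stems (13.0 CPM), and As_26169 is at 0 in all equatorial leaves and stems.

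In the tissues that put them on the list, the log2 fold change of subtropical minus equatorial trees was 1.02 (standard error, SE, 0.23) for As_16912 in leaves and 1.30 (0.26) for As_25244 in stems. As_10296 in stems and As_26169 in leaves had too few counts for the filter on low counts. Fitted without the filter, they had log2 fold changes of 3.74 (SE 1.0) and 8.81 (1.68), and the second of these rests on an equatorial group at 0 and depends on the fit rather than giving a bound. Nothing is read from these values about the sites, since they chose the members. For the same reason, the 4 of 4 members whose libraries did not overlap between the sites in leaves, and the 4 of 4 in stems, stand beside 10.5% of all transcripts tested in leaves and 7.89% in stems that had every subtropical library above the equatorial ones, with no reading of the difference. Members that the filter dropped, As_10296 in stems and As_26169 in both tissues, are not among those tested. As_26169 in stems rests on 8 counts against 0.

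In the vegetative tissue that the listing did not use, the 3 members that passed the filter were all higher in subtropical trees (log2 fold changes above 0 were found for 49.6% of all transcripts in leaves and 48.4% in stems), and the quasi-likelihood test of edgeR called 0 of them at an adjusted p under 0.05. As_16912 was 1.98-fold higher in subtropical stems (log2 fold change 0.98, SE 0.27, unadjusted p = 0.00813, adjusted p = 0.341). As_25244 was 3.09-fold higher in subtropical leaves (log2 fold change 1.63, SE 0.50, unadjusted p = 0.0128, adjusted p = 0.243). For As_10296 in leaves the log2 fold change was 1.42 (SE 0.65, unadjusted p = 0.0629, adjusted p = 0.412), with 0.92 when Eq5 was left out and 2.02 when Eq6 was left out. An unadjusted p under 0.05 was found for 2 of the 3, as for 13.1% of transcripts in leaves and 9.03% in stems, while 0 of the 3 were called by edgeR's exact test or by DESeq2. Adjusted p under 0.05 was reached by 0.198% of 28243 transcripts tested in leaves and 0.228% of 34269 in stems. As_26169 in stems, with 8 counts against 0, was kept only without the filter (adjusted p = 0.580). Leaves and stems came from the same trees, so that the tissue not used is no separate set of trees.

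In flowers, which played no part in the listing, the mean was higher in subtropical trees for 4 of 4 members. For As_26169 this rests on 8 against 4 counts. By the labels, the flowers came from the trees whose leaves or stems chose the members, so they are no separate set of trees. Of all 29232 transcripts tested, which hold 2 of the members, 50.5% had a log2 fold change above 0. Only As_16912 had sites that did not overlap, 1 member of 4 and 1 of the 2 tested, where 5.88% of transcripts tested had every subtropical library above the equatorial ones. It was 1.74-fold higher in subtropical flowers (log2 fold change 0.80, SE 0.24, unadjusted p = 0.0111, adjusted p = 0.866). As_25244 had a log2 fold change of 0.69 (SE 0.53, adjusted p = 0.877). The quasi-likelihood test called 0 of these 2 members, which passed the filter, and 0% of all transcripts tested (5.66% at an unadjusted p under 0.05, also 1 of the 2 members). The exact test called 0 of the 2, and DESeq2 did not call As_16912 (adjusted p = 0.435) and gave no adjusted p for As_25244. As_10296 and As_26169 did not pass the filter in flowers. Fitted without it, their log2 fold changes were 0.58 (SE 1.26, adjusted p = 0.977) and 0.79 (1.57, adjusted p = 0.972).

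Without the flower library labelled Eq6, the site differences in flowers were larger for As_16912 (log2 fold change 0.87, SE 0.28, adjusted p = 0.204) and As_25244 (0.94, SE 0.61, adjusted p = 0.501), and neither was called in this or another fit (adjusted p from 0.204 to 1.0 and from 0.501 to 1.0), although 1.79% of the 32029 transcripts then tested were. The flower difference of As_25244 was smaller without St1 (log2 fold change 0.37, adjusted p = 0.966) and without the library labelled Eq4 (0.38, adjusted p = 1.0). Without the library labelled Eq6, members without overlap were 2 of 4, against 17.5% of transcripts tested, which do not hold As_26169. As_25244 was added, with 2.65 CPM as the lowest subtropical and 2.60 CPM as the highest equatorial flower. As_10296 passed the filter in the fit without Eq6, with a log2 fold change of 1.52 (SE 1.53, adjusted p = 0.681). As_26169 was then counted 8 times in subtropical and 0 times in equatorial flowers. The pooled subtropical level of 0.287 CPM lay below the floors of the 2 remaining libraries (0.372 and 0.708 CPM), and no fold is given.

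**Figure D2:**
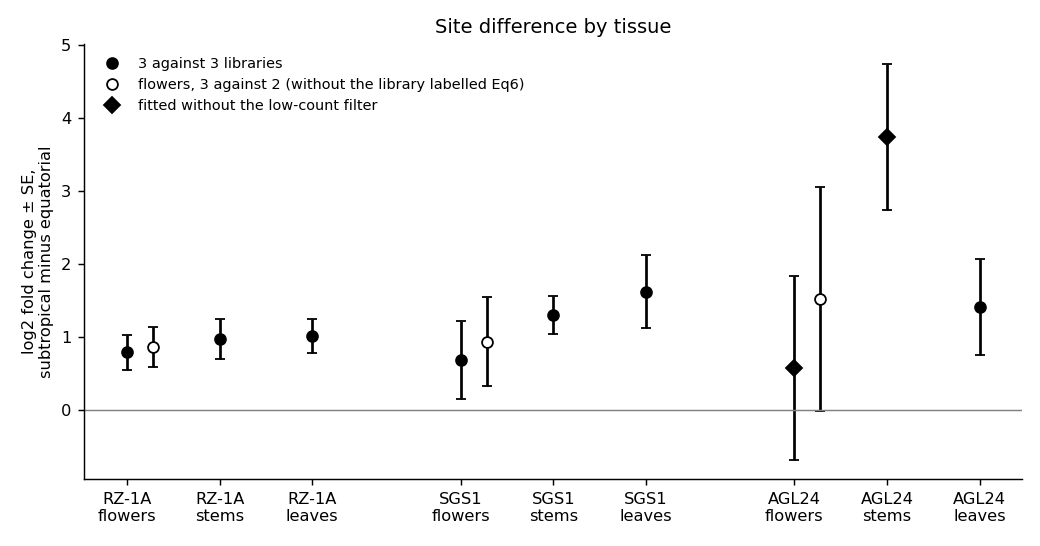
Log2 fold change of subtropical minus equatorial trees in flowers, stems and leaves for the transcripts similar to RZ-1A (As_16912), SGS1 (As_25244) and AGL24 (As_10296), with the SE as bars. Filled circles are fits of 3 against 3 libraries, open circles flowers without the library labelled Eq6, and diamonds fits without the filter on low counts. The points lie above 0, with 0.80 and 0.98 for As_16912 in flowers and stems. Leaves for As_16912 (1.02) and stems for As_25244 and As_10296 are the contrasts that chose the members, so that their sign was set by the listing. The diamond and the open circle of As_10296 in flowers both have bars that cross 0.

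Differences between tissues were tested over the 18 libraries and averaged over the sites. These averages include the groups that put the members on the list. For As_16912 and As_25244 that group, subtropical leaves and subtropical stems, is also the highest of the transcript. Differences with leaves for As_16912, and with stems for As_25244 and As_10296, are therefore not free of the listing. Of the 3 members that passed the filter, 2 were called between stems and leaves, 2 between flowers and leaves and 1 between flowers and stems, where 33.1%, 46.6% and 37.3% of all 37761 transcripts tested were called. With 3 members, these counts are no result about the members as a group, and the differences are given for each.

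As_10296, similar to AGL24, fell by 4.94 on the log2 scale in stems relative to leaves (SE 0.83, adjusted p = 0.000234), lower in 6 of 6 trees. In flowers it fell by 2.98 relative to leaves (SE 0.73, adjusted p = 0.00315), again lower in 6 of 6 trees. Without the flower library labelled Eq6 this difference was -3.46. Between flowers and stems the log2 fold change was 1.96 (SE 0.85, adjusted p = 0.0810), and flowers were higher in 3 trees and lower in the other 3. DESeq2 called this last difference (adjusted p = 0.0288), as did the quasi-likelihood test without tree Eq5 (0.0241), and over 12 alternatives the adjusted p ran from 0.0241 to 0.398.

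As_25244, similar to the helicase, rose by 1.70 on the log2 scale in stems relative to leaves (SE 0.31, adjusted p = 0.000560), higher in 6 of 6 trees. It fell by 1.58 in flowers relative to stems (SE 0.31, adjusted p = 0.00105), lower in 6 of 6 trees. Flowers and leaves differed by 0.12 on the log2 scale (SE 0.32, adjusted p = 0.781), with flowers higher in 3 of 6 trees. The stem of each tree therefore held the highest value of its 3 tissues at both sites.

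As_16912, similar to RZ-1A, fell by 0.88 on the log2 scale in flowers relative to leaves (SE 0.18, adjusted p = 0.000995), lower in 6 of 6 trees. Stems were 0.47 below leaves (SE 0.18, adjusted p = 0.0561) in 6 of 6 trees, and flowers were 0.41 below stems (SE 0.18, adjusted p = 0.0909) in 5 of 6 trees. With the tree as a block, which compares tissues within a tree, the 2 differences passed the threshold (adjusted p = 0.00517 and 0.0157). Stems and leaves were also called by DESeq2 (adjusted p = 0.0405) and by the quasi-likelihood test without tree Eq4 (0.0341). Over the alternatives, the adjusted p ran from 0.00517 to 0.158 for stems and leaves and from 0.0157 to 0.286 for flowers and stems.

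As_26169 was left out of these contrasts, because 5 of its 6 groups hold at most 8 counts and its high group, the subtropical leaves, is the one that put it on the list. In each subtropical tree the leaf had more counts than the stem and the flower.

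**Figure D3:**
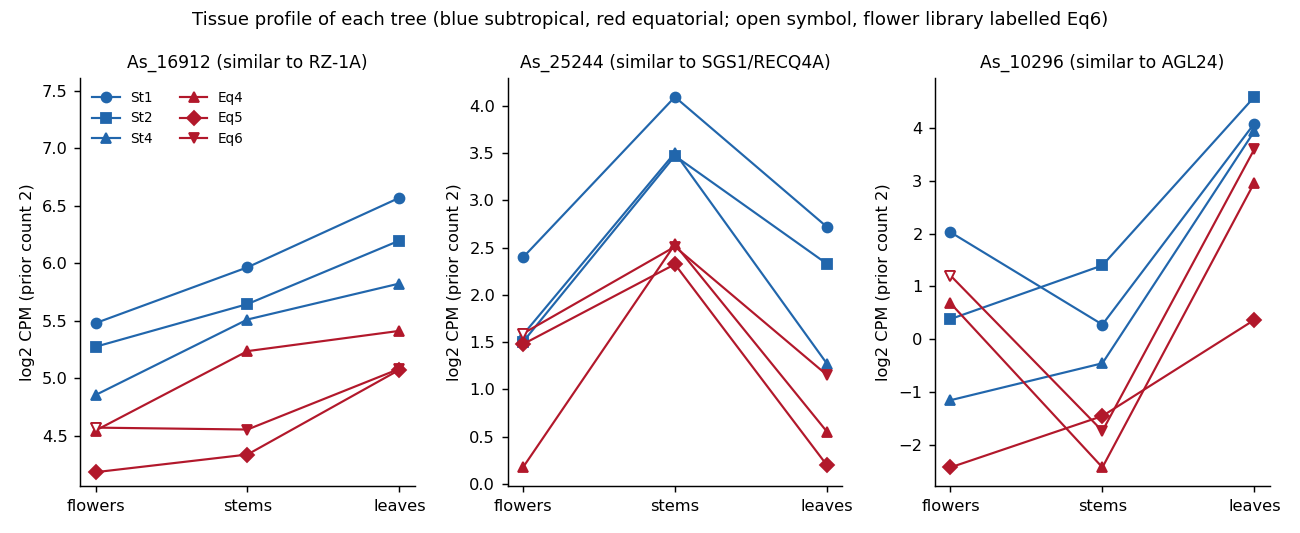
Log2 CPM (prior count 2) in flowers, stems and leaves of each tree for the transcripts similar to RZ-1A, SGS1 and AGL24, with subtropical trees in blue, equatorial trees in red and 1 line per tree. The open symbol is the flower library labelled Eq6. The lines of As_25244 peak in stems in 6 of 6 trees, and those of As_10296 and As_16912 are highest in leaves in 6 of 6 trees.

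Whether the site difference was of another size in flowers than in the vegetative tissue that the listing did not use was tested as the interaction of site and tissue. For As_16912, the flower difference minus the stem difference was -0.17 on the log2 scale (SE 0.37, adjusted p = 1.0). For As_25244 the flower difference minus the leaf difference was -0.96 (SE 0.64, adjusted p = 0.790), and for As_10296 it was -0.85 (SE 1.41, adjusted p = 0.954). Without the flower library labelled Eq6 the value of As_10296 turned to 0.17. None of the 3 was called by the quasi-likelihood test, by DESeq2 or with the tree as a block, 0 of them had an unadjusted p under 0.05, and 0% of all transcripts were called between flowers and leaves and 0.0053% between flowers and stems.

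The same list of cold-response transcripts holds 3 further entries, which the study likewise chose for higher levels in subtropical leaves and, for As_3802, also stems. Their differences between tissues take in these groups too. As_3802 is similar to AT2G37770, a stress-inducible aldo-keto reductase of chloroplasts, As_27536 to the delta subunit of the chloroplast ATP synthase (ATPD), and As_26953 to PQL3, a PsbQ-like protein of the chloroplast NDH complex. As_27536 is also one of the green tissue markers above.

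As_3802 had 59.3, 41.0 and 38.0 CPM in flowers of St1, St2 and St4, against 18.9, 26.8 and 33.1 CPM in flowers labelled Eq4, Eq5 and Eq6. The sites did not overlap in flowers, where 5.88% of transcripts tested had every subtropical library above the equatorial ones. Stems had 15.0, 8.53 and 7.60 CPM at the subtropical and 0.756, 2.68 and 3.52 CPM at the equatorial site. Leaves had 28.7, 18.2 and 6.47 CPM against 1.60, 3.30 and 1.22 CPM. Stems and leaves chose this transcript, so that nothing is read from their lack of overlap. In flowers the log2 fold change between the sites was 0.81 (SE 0.28, unadjusted p = 0.0195, adjusted p = 0.866), and without the library labelled Eq6 it was 1.02 (adjusted p = 0.150). Among tissues it was highest in flowers. It rose by 2.54 on the log2 scale in flowers relative to leaves (SE 0.40, adjusted p = 8.88e-05) and by 2.82 relative to stems (SE 0.40, adjusted p = 5.68e-05), in 6 of 6 trees each.

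As_26953 averaged 3.83 ± 1.30 CPM in subtropical and 2.95 ± 3.94 CPM in equatorial flowers, 7.48 ± 3.21 and 4.86 ± 2.31 CPM in stems, and 23.6 ± 4.57 and 10.6 ± 2.45 CPM in leaves (SD, n = 3 trees each). It fell by 2.21 on the log2 scale in flowers relative to leaves (SE 0.57, adjusted p = 0.00488), lower in 6 of 6 trees. Stems were 1.39 below leaves (SE 0.55, adjusted p = 0.0619, and up to 0.188 under other settings). This difference was called when the tree was a block (adjusted p = 0.0205), by DESeq2 (0.0297) and by the quasi-likelihood test without tree Eq5 (0.0256) or without tree Eq6 (0.0407). The wide spread of the equatorial flowers comes from 63 counts in the library labelled Eq6, against 6 and 0 counts in those labelled Eq4 and Eq5. Without that library, flowers were 1.99 below stems (adjusted p = 0.00872), whereas with it the difference was -0.82 (adjusted p = 0.271, and up to 0.601 under other settings). As_27536 averaged 6.91 ± 0.820 and 5.32 ± 2.10 CPM for flowers, 7.13 ± 1.34 and 5.06 ± 2.60 CPM for stems and 14.4 ± 4.34 and 5.24 ± 2.27 CPM for leaves (subtropical before equatorial, SD, n = 3 trees each), and none of its tissue differences was called (adjusted p from 0.169 to 0.982). Between the sites, in the tissues that had not chosen them, the quasi-likelihood test called 0 of 5 comparisons of these 3 transcripts, the exact test and DESeq2 also called 0, and 1 had an unadjusted p under 0.05. Over all transcripts, the quasi-likelihood test gave an unadjusted p under 0.05 for 5.66% in flowers and 9.03% in stems, and called 0% and 0.228%.

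**Figure D4:**
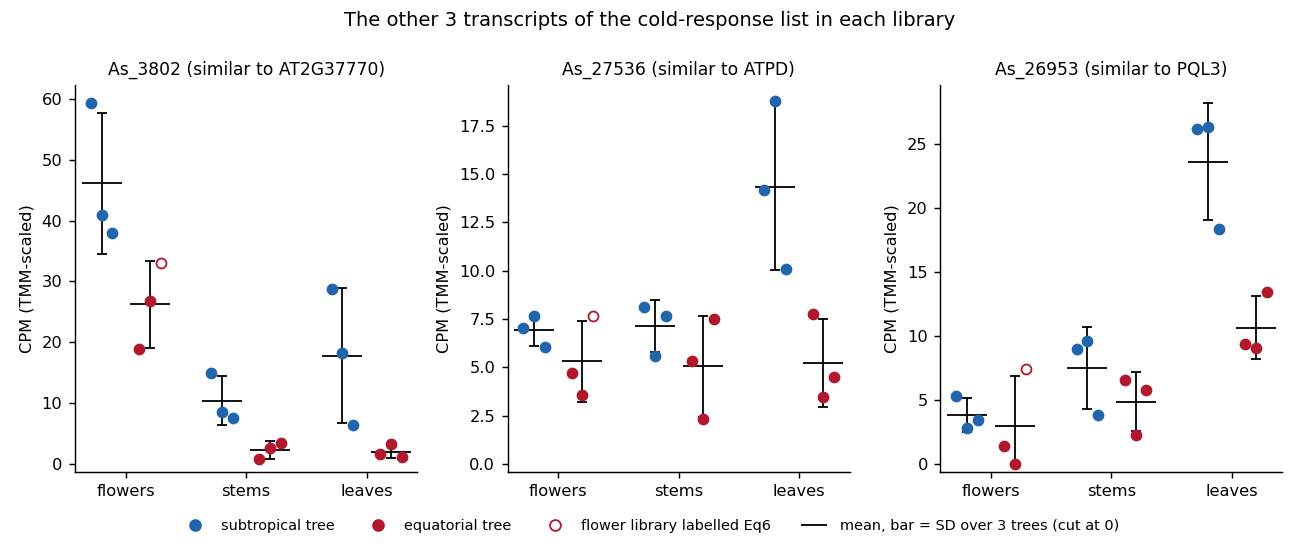
CPM of the other 3 transcripts of the cold-response list in each library, on a linear axis, laid out as for the 4 members. As_3802 is highest in flowers at both sites (means 46.1 CPM in subtropical and 26.3 CPM in equatorial trees), and As_27536 and As_26953 are highest in subtropical leaves (14.4 and 23.6 CPM).

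Across the 18 libraries, which share trees and differ in tissue, site and depth, the log2 CPM of As_16912 had a Pearson correlation of 0.71 with As_26169, 0.68 with As_10296 and 0.42 with As_25244. As_26169 and As_10296 had 0.66, and As_25244 had 0.24 with As_26169 and -0.14 with As_10296. The transcript that peaks in stems thus ran least with the others.

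Among 37761 transcripts, those most like a member over the 18 libraries were sought by the same correlation, as a description. For As_16912 they were the non-coding transcripts non_cod_As_39982 (0.94) and non_cod_As_4757 (0.91) and the coding As_18428 (0.90). Named transcripts were sought only among 124 that the study's supplementary lists pair with an *Arabidopsis* gene. The study annotated many more, and these lists hold transcripts that it picked, among them many for a site difference. Of the 124, PSBO1 (As_16502, 0.86), a subunit of the oxygen-evolving complex, and PSB27 (As_15863, 0.83), an assembly factor of photosystem II, came first. Both belong to the green tissue markers above, whose sums did not overlap between the sites in leaves, the tissue in which that list was chosen.

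As_25244 was most like As_38047 (0.94), As_18647 (0.92) and As_26348 (0.89), which have no name in the study's lists. Of the named transcripts, cytosolic copper/zinc superoxide dismutase CSD1 (As_17209, 0.68) and AT1G44446 (As_12775, 0.65), the oxygenase that makes chlorophyll b, came closest.

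As_10296 was most like non_cod_As_41995 (0.99), As_2119 (0.92) and As_43175 (0.91), and among named ones like PQL2 (As_24908, 0.77), a PsbQ-like protein of the NDH complex, and As_21559 (AT4G00905, 0.77). PQL2 is also one of the green tissue markers. non_cod_As_41995 had 347 counts in subtropical and 154 in equatorial leaves, and 52 and 0 in stems. As_10296 had 523 and 220 counts in leaves and 55 and 4 in stems.

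As_26169 was most like non_cod_As_35745 (0.97), As_46113 (0.96) and As_24220 (0.96). These 3 were sought by their likeness to it, so that its restriction by site is built into the choice. They had 279, 1669 and 485 counts in subtropical leaves and 0 counts each in equatorial leaves and stems. In equatorial flowers they had 2, 6 and 2 counts, of which the library labelled Eq6 held 2, 6 and 2. Closest among named transcripts were ATPD (As_27536, 0.83) and As_21559 (0.78). ATPD is likewise a green tissue marker.

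The spread between trees of a group differed among the members. Over the 18 libraries, edgeR put the biological coefficient of variation at 0.242 for As_16912, 0.344 for As_25244 and 0.821 for As_10296, with a median of 0.377 over all transcripts. A lower value was found for 20.1% of transcripts in the first case, 43.5% in the second and 93.3% in the third.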

How the data were processed

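RNA of leaves, stems and flowers from 6 trees was sequenced, 1 library per tree and tissue. Per the labels and the study's methods, the authors assembled quality-filtered paired-end reads into a transcriptome, mapped the reads back with Bowtie 0.12.2 and deposited raw counts of uniquely mapped reads for each transcript. The methods name single-read mode and Bowtie's default settings for mapping to the assembly, and for the counting step the tool and unique mapping only. Each of the 18 single-library files equals its column of the deposited table.

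Sites were compared within a tissue (3 against 3 libraries) and tissues over the 18 libraries by edgeR's quasi-likelihood test (edgeR 4.0.16, limma 3.58.1, R 4.3.3), with TMM scaling and filterByExpr. The p-values were adjusted by Benjamini-Hochberg over every transcript in the fit, and those under 0.05 were called. Every adjusted p is from this test unless edgeR's exact test or DESeq2 1.42.0 is named. The study's methods name the exact test. The SE is the size of the log2 fold change divided by the root of F, and log2 CPM has a prior count of 2. The scripts were tested on simulated data. Alternatives were the exact test, DESeq2, RLE scaling, a fit of the sites over all 18 libraries, a filter of over 1 CPM in 3 or more libraries, omitting the filter, leaving out each tree, leaving out the flower library labelled Eq6, and the tree as a block. By the labels, samples of 1 name come from the same tree. The leaf and the stem of a tree deviated from their groups with a correlation of 0.322 in St1, 0.287 in St2 and 0.0785 in St4. In equatorial trees it was -0.0212 in Eq4, 0.403 in Eq5 and 0.277 in Eq6. For the leaf and the flower it ran from 0.0605 to 0.315, and for the stem and the flower from 0.0161 to 0.273.

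The transcripts named are the 4 members, the other 3 of the same list and the 3 transcripts most correlated with each member. Added to these are the 2 most correlated with each member among those with an *Arabidopsis* name in the study's supplementary lists. Members and lists were chosen with earlier results of these data known. No library pair of a group differed by as little as sampling noise (lowest chi-square per transcript 26.0 over 18 pairs). Depth limits the low counts of As_26169, and those of As_10296 in stems and flowers, and the spread between 3 trees limits the rest. No sequences of the transcripts were used here.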

Additional observations from a re-analysis of the deposited data

How the results depend on the processing

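For the members and the other cold-list transcripts, 389 values under the alternatives kept their direction and their side of the threshold, 12 passed the threshold in addition and 13 changed sign. For the other cold-list transcripts, the block, RLE scaling, both filters and the single fit over 18 libraries were added after seeing the data. No call was lost under an alternative. Between flowers and stems the count of members called was 1, with 2 when the tree was a block, 2 by DESeq2 and 1 to 2 without a tree (2 without Eq5). The block changed the calls of As_16912 (both differences) and As_26953 (stems and leaves) given above and no other call, and it turned the interaction of As_26953 to 0.23. Without the flower library labelled Eq6, values turned to -0.14 for As_27536 in flowers minus stems, and in the site by tissue interaction to 0.17 for As_10296, 2.13 for As_26953 and 0.26 for As_27536. With 1 tree left out at a time, As_26953 ranged from -0.26 to 2.67 in the site difference of flowers, As_25244 from -0.071 to 0.23 in flowers minus leaves and As_27536 from -0.10 to 0.13 in flowers minus stems. In the interaction, As_16912 then ranged from -0.43 to 0.0072, As_26953 from -0.84 to 2.02 and As_27536 from -0.34 to 0.019. As_10296 in flowers had a site difference of -0.06 without Eq5. Of these values, 0 were called between the sites. The cause of these changes was not tested.

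Counts over all transcripts moved more. In leaves 966 were called by the exact test and 1133 by DESeq2, and in stems 571 and 690, against 56 and 78 by the quasi-likelihood test, which called 0 to 105 in leaves and 0 to 87 in stems without 1 library and 103 in leaves when fitted over the 18 libraries. In flowers the exact test called 6, DESeq2 called 50 and the fit over the 18 libraries 1, against 0. DESeq2 called 142 interactions of flowers and leaves, against 0, and 61 of flowers and stems, against 2, and without the library labelled Eq6 the counts were 34 and 19. By Spearman in place of Pearson correlation, 1 of the 3 transcripts most like As_16912, 2 for As_25244, 2 for As_26169 and 1 for As_10296 remained. Levels under about 3 counts a library cannot be told from 0.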
